A study of Homo sapiens with 6 samples.

Results

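The ERK pathway output and feedback genes are 10 transcripts that rise when the kinase ERK is active and that then act on the pathway, or carry its signal to the nucleus. They were chosen by symbol as DUSP4, DUSP5, DUSP6, SPRY1, SPRY2, SPRY4, SPRED1, ETV4, ETV5 and PHLDA1, and each had its own row among the 25442 genes of the expression table. In the pathway, RAS proteins switch on RAF kinases, RAF phosphorylates MEK, and MEK phosphorylates ERK. Active ERK raises the transcription of its own inhibitors. Dual-specificity phosphatases remove phosphate from ERK, sprouty and SPRED proteins act further up between growth factor receptors and RAF, and ETV4 and ETV5 are ETS transcription factors that are read, with the others, as a record of ERK output. The cascade is commonly active in pancreatic ductal adenocarcinoma, which is why these transcripts are followed in such cells.

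The genes were measured in 6 RNA-seq libraries of YAPC, a human pancreatic cancer line that serves in the study as a model of the classical subtype. The parent line held rtTA, the Dox-dependent activator. In 3 libraries the cells carried the pRetroX-Tight-Puro vector with GLI2, a transcription factor of the Hedgehog pathway, as a 3xFlag tagged human cDNA (iGLI2), and in the other 3 they carried the same vector empty (iEV). Both groups had received doxycycline (Dox), which switches the vector's promoter on, in full growth medium for 6 days, so Dox itself does not separate them. The labels do not say that replicates came from separate cultures or that the lines are pools or single clones, and the p-values then measure the spread between these libraries, which may be technical. GLI2 itself stood at 0.466, 0.412 and 0.344 FPKM with the empty vector (replicates 1 to 3) and at 94.5, 207 and 195 FPKM with the GLI2 vector. Each library thus had the GLI2 level of its label, and iGLI2 replicate 1 had the lowest of its group. FPKM divides a gene's fragments by its transcript length and by library size, so that levels of different genes can be set side by side.

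The libraries had total FPKM between 981344 and 1082687 for iEV and between 803149 and 889559 for iGLI2. The small RNA gene MIR4461 alone held between 35.7% and 45.4% of each total. Read depth is unknown, and no counting interval is given. Of the ductal markers, KRT19, KRT7, EPCAM, CDH1, MUC1 and SOX9 were all present, while KRT8 and KRT18 are listed at 0 in every library, which can be a failed estimate. These markers also moved between the groups, with EPCAM and CDH1 called higher in iGLI2 cells (log2 change 0.37 for both, limma adjusted p = 0.00709 and 0.0169) and MUC1 called lower, from 20.4 to 24.1 FPKM in iEV to 3.38 to 3.93 FPKM in iGLI2 cells. Summed fibroblast markers (6 genes) lay between 1.36 and 1.57 FPKM in iEV and between 2.31 and 3.02 FPKM in iGLI2 cells, nearly all of it COL1A1, the 1 of the 6 that was tested and called, with DCN at 0. The part of such cells in the results was not tested. The 6 leukocyte markers summed to between 13.6 and 17.7 FPKM in iEV and between 8.83 and 17.1 FPKM in iGLI2 cells, nearly all of it LYZ and CD68, while the defining marker PTPRC stayed between 0.0115 and 0.0343 FPKM. The 5 endothelial markers summed to at most 0.654 FPKM in any library. Fewer cells of a type and less RNA per cell cannot be told apart in these bulk libraries.

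After 6 days of GLI2 expression, SPRY4, DUSP5, SPRY1 and ETV4 were higher and the other ERK output genes did not pass the test. SPRY4 rose from 16.2 to 38.7 FPKM and DUSP5 from 51.9 to 100.3 FPKM. SPRY1 and ETV4 rose by much less, 1.27-fold and 1.17-fold in the means. DUSP6, the most abundant member, stayed between 123 and 134 FPKM in every library. In limma's moderated test on log2(FPKM + 1), two-sided and adjusted over the 12493 genes whose mean reached 1 FPKM, 4 of the 10 members passed as higher with GLI2 and 0 as lower, at a threshold of 0.05. Over all genes tested, 10.1% were called higher and 11.8% lower. At an unadjusted p under 0.05 the counts were 5 and 0, with PHLDA1 added to the higher genes. The share of all genes at that looser threshold was not computed, and the shares above do not apply to it. Without iEV replicate 2 or 3, or iGLI2 replicate 2 or 3, DUSP5 and SPRY4 were the 2 members still called. Without iGLI2 replicate 1, 4 were called higher (DUSP5, SPRY4, ETV4 and SPRY2) and 1 lower (DUSP4). Calls over all 12493 genes also rose in that fit, to 1855 higher and 1898 lower, from 1262 and 1480. The groups did not overlap, with iGLI2 above, for the same 4 members, against 19.2% of all genes tested. The fitted log2 change (iGLI2 over iEV, on log2(FPKM + 1)) was positive for 7 members and negative for 3, with a median of 0.19 against -0.015 over all genes tested. Of all calls, 46.0% were higher in iGLI2 cells, and 59.3% were when small RNA genes were left out and the libraries rescaled. Each of the 4 member calls held under that scaling, and no member changed direction in any setting tried.

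**Figure D1:**
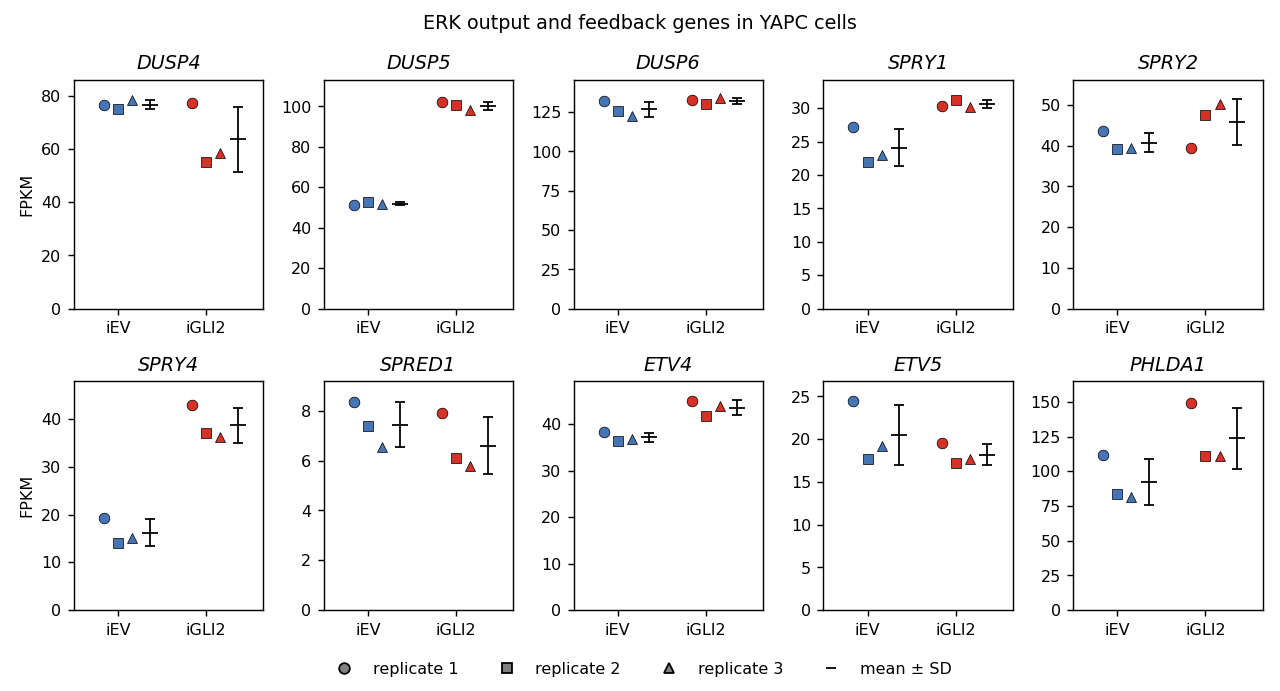
FPKM (vertical axes, each starting at 0) of the 10 ERK output and feedback genes in the 3 iEV (blue) and 3 iGLI2 (red) libraries, with the replicate number as the symbol and the group mean ± SD as a bar. All iGLI2 points lie above all iEV points for DUSP5, SPRY1, SPRY4 and ETV4, and the groups overlap for the other 6 genes.

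Among the phosphatases of the list, DUSP5 passed the test. DUSP5 is a nuclear phosphatase that acts on ERK, and its gene lies on chromosome 10 of hg19 from 112257625 to 112271302. Replicates 1 to 3 had 51.4, 52.7 and 51.6 FPKM of it among the iEV cells and 102, 101 and 98.0 FPKM among the iGLI2 cells. No library lay between 52.7 and 98.0 FPKM, and the spread within each group was small. The mean went from 51.9 ± 0.702 FPKM to 100.3 ± 2.04 FPKM (SD, n = 3 per group), a ratio of 1.93. On that log2 scale the change was 0.94 (standard error 0.052, 95% interval 0.81 to 1.06, limma adjusted p = 3.46e-04). It stayed between 0.92 and 0.95 with each library left out in turn. DUSP5 ranked 498 by increase among the 12493 genes, and its call held in all 15 alternatives.

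DUSP6 is the cytoplasmic ERK phosphatase most often used as a readout of the pathway. The gene is on chromosome 12 (hg19 positions 89741602 to 89746636). Its level was 132, 125 and 123 FPKM in iEV and 133, 130.0 and 134 FPKM in iGLI2 replicates 1, 2 and 3, and the groups overlapped. Its log2 change was 0.06 with a 95% interval of -0.080 to 0.20 (limma adjusted p = 0.496), so the interval runs from a small decrease to an increase of 0.20. DUSP6 passed in 0 of 15 alternatives. A noncoding gene on the opposite strand overlaps it and was not matched to the table by name.

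DUSP4, a nuclear phosphatase of ERK and of the stress kinases, lies on chromosome 8 of hg19 from 29190579 to 29208267. The iEV replicates had 76.5, 75.2 and 78.4 FPKM, with an SD of 1.59 FPKM. The iGLI2 replicates, in the same order, had 77.5, 55.0 and 58.5 FPKM. Of these, iGLI2 replicate 1 sat at the iEV level and replicates 2 and 3 below it. This gave a log2 change of -0.28 (standard error 0.13, 95% interval -0.61 to 0.043, limma adjusted p = 0.190), which did not pass. Without iGLI2 replicate 1 it was -0.43 and was called lower (adjusted p = 0.00446, limma), the sole alternative of 15 that called it. In iEV cells the order of the phosphatases was DUSP6, DUSP4, DUSP5, and in iGLI2 cells it was DUSP6, DUSP5, DUSP4, with no overlap between neighbours in either group.

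Summed over these 3 phosphatases, the level was 253 to 260 FPKM in the iEV and 286 to 312 FPKM in the iGLI2 libraries. DUSP5 made up 20.3% ± 0.522 of that sum in iEV and 33.9% ± 1.27 in iGLI2 cells (SD, n = 3 per group). The share of DUSP4 went from 30.0% to 21.4% and that of DUSP6 from 49.6% to 44.7%. The ratio of DUSP5 to DUSP6 within a library, which no scaling between libraries changes, was 0.389, 0.420 and 0.420 in iEV and 0.770, 0.774 and 0.731 in iGLI2 replicates 1, 2 and 3. Such ratios and shares were chosen after the values were seen. In exact permutation tests, two-sided, 7 of the 9 ratios computed had p = 0.1 (0.129 after Benjamini-Hochberg adjustment over the 9), DUSP5 to DUSP6 among them, and DUSP4 to DUSP6 and SPRY1 to SPRY2 had p = 0.2. As 0.1 is the smallest p that 3 against 3 libraries allow, no ratio could pass.

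Of the sprouty genes, SPRY4 and SPRY1 passed the test, and SPRY4 had the larger change. Sprouty proteins bind adaptors and RAF below receptor tyrosine kinases and dampen the signal to ERK. SPRY4 is on chromosome 5 (hg19 positions 141689992 to 141704620). Its level was 19.3, 14.0 and 15.1 FPKM in iEV and 42.9, 37.1 and 36.2 FPKM in iGLI2 replicates 1, 2 and 3. The lowest iGLI2 library thus lay far above the highest iEV library. The mean went from 16.2 ± 2.81 FPKM to 38.7 ± 3.66 FPKM (SD, n = 3 per group), a ratio of 2.40. Its log2 change was 1.22 (standard error 0.13, 95% interval 0.89 to 1.54, limma adjusted p = 0.00247), the largest among the 10 members, and ranked 342 by increase among all genes tested. It was between 1.13 and 1.35 with each library left out and was called in all 15 alternatives.

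SPRY1, on chromosome 4 of hg19 from 124317950 to 124324915, had 27.2, 22.0 and 23.0 FPKM in iEV and 30.4, 31.2 and 30.2 FPKM in iGLI2 replicates 1, 2 and 3. The iGLI2 values were close together, and iEV replicate 1 came nearest to them. The mean was 24.1 ± 2.78 FPKM and 30.6 ± 0.571 FPKM (SD, n = 3 per group), and the log2 change was 0.34 (standard error 0.089, 95% interval 0.12 to 0.56, limma adjusted p = 0.0433). This call was close to the threshold. It held without iEV replicate 1 (adjusted p = 0.0129) and was lost without iEV replicate 2 (0.143), iEV replicate 3 (0.145) and iGLI2 replicates 1 (0.0608), 2 (0.136) and 3 (0.111), all limma adjusted p-values. It was also lost with no filter on low values (0.0523) and when the digit in the sample code was the block (0.0754).

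SPRY2, on chromosome 13 of hg19 from 80910112 to 80915086, had 43.5, 39.2 and 39.5 FPKM in iEV and 39.5, 47.5 and 50.3 FPKM in iGLI2 replicates 1, 2 and 3. Here iGLI2 replicate 1 lay within the iEV range and replicates 2 and 3 above it. For SPRY2 the log2 change was 0.16 (standard error 0.10, 95% interval -0.096 to 0.42, limma adjusted p = 0.335). Without iGLI2 replicate 1 it was 0.26 and passed (adjusted p = 0.0413, limma), while in the other 14 alternatives it did not. SPRY2 and DUSP4 were the members that passed only with that library left out, and they did so in opposite directions.

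Within the sprouty family the summed level was 80.9 ± 7.98 FPKM for iEV and 115 ± 2.03 FPKM for iGLI2 (SD, n = 3 per group). SPRY4 made up 19.9% ± 1.45 of it in iEV and 33.7% ± 3.81 in iGLI2 cells. The share of SPRY2 went from 50.4% to 39.7% and that of SPRY1 from 29.7% to 26.6%. Their own mean levels did not fall, at 40.7 and 45.8 FPKM for SPRY2 and 24.1 and 30.6 FPKM for SPRY1 in iEV and iGLI2 cells. SPRY4 was the least abundant of the 3 in every iEV library. In iGLI2 replicate 1 it was the most abundant, and in replicates 2 and 3 it stood between SPRY1 and SPRY2. The ratio of SPRY4 to SPRY1 was 0.711, 0.639 and 0.656 in iEV and 1.41, 1.19 and 1.20 in iGLI2 replicates 1, 2 and 3.

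**Figure D2:**
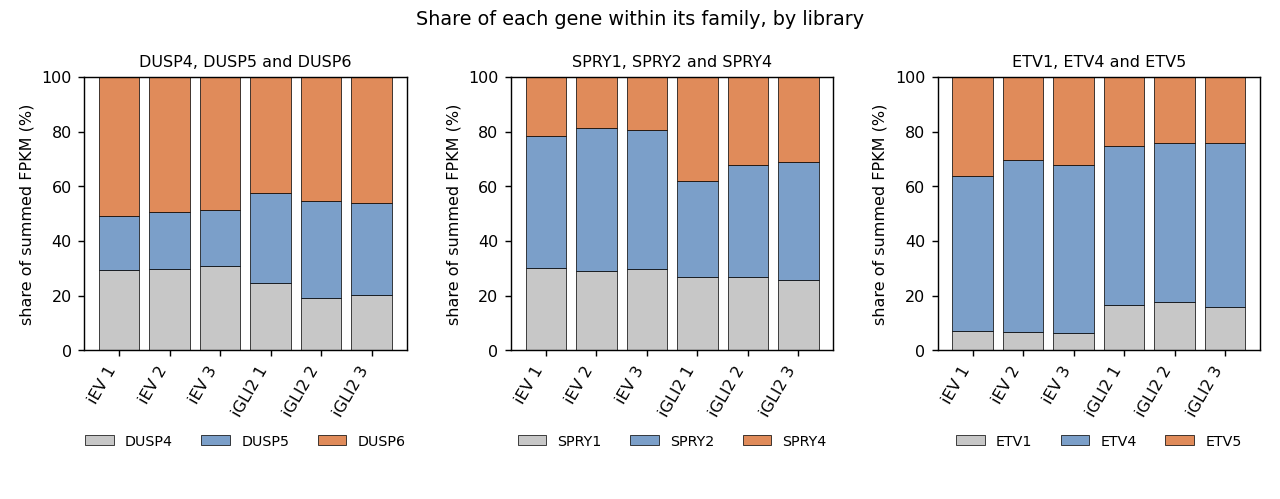
Share (%) of each gene in the summed FPKM of its family, for each of the 6 libraries, with DUSP4, DUSP5 and DUSP6 on the left, SPRY1, SPRY2 and SPRY4 in the middle and ETV1, ETV4 and ETV5 on the right. The bands of DUSP5 and SPRY4 are wider in all 3 iGLI2 libraries than in any iEV library, as is the band of ETV1, which was not among the 10 members.

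Sequences before a start of each of these sprouty genes are shown because this family holds members that passed the test and a member that did not. They were taken from RefSeq (GRCh38.p14), matched by sequence to hg19, the build of the expression table, and are written 5′ to 3′ on the strand of the gene, with stretches inside annotated exons left out. SPRY1 is shown from its outermost start (chr4:124317700-124317949, plus strand), SPRY2 likewise (chr13:80915262-80915511, minus strand), and SPRY4 by the 80 bases outside exons in its window (chr5:141703983-141704062, minus strand). That SPRY4 stretch lies inside the hg19 span of the gene (141689992 to 141704620), so it precedes an inner start and is not upstream of the whole gene.
SPRY1: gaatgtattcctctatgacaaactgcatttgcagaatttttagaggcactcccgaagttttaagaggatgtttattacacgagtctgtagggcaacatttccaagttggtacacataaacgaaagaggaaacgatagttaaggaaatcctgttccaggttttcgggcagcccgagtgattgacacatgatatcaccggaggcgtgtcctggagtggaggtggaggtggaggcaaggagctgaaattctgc
SPRY2: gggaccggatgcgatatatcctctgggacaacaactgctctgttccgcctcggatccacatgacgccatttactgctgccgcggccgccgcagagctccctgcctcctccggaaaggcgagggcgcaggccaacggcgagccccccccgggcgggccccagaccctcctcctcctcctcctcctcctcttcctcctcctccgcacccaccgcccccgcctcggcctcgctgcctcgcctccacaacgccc
SPRY4: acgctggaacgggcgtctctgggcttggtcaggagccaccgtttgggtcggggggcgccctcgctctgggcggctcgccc
GC content over the 250 bases before the start was 45.6% for this SPRY1 window, 70.4% for SPRY2 and 65.6% for the whole SPRY4 window, against a median of 58% over 35116 promoters of the table. The search covered 9 windows for 6 members, namely SPRY1, SPRY2, SPRY4, SPRED1, DUSP6 and PHLDA1. No window of the other members was searched. Each window, from 250 bases before to 50 after a start, was searched on both strands for the letters TGAATGAA and TGAATGGA, bound by the repressor CIC, GACCACCCA and GACCTCCCA, bound by GLI proteins, TGANTCA, bound by AP-1, and CCGGAAG, bound by ETS factors. None of these letter strings contains another. One match was found, CCGGAAG from -67 to -61 of a second SPRY1 start, which lies in an annotated exon and is not shown. Over all promoters the shares with a match were 1.66% for TGAATGAA, 1.03% for TGAATGGA, 0.236% for GACCACCCA, 0.353% for GACCTCCCA, 7.71% for TGANTCA and 10.3% for CCGGAAG. A missing match says only that these letters are not in these windows.

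SPRED1 was the least abundant member and did not pass. SPRED1 binds neurofibromin and brings it to RAS at the membrane, and its gene lies on chromosome 15 of hg19 from 38545052 to 38649450. It had 8.36, 7.37 and 6.56 FPKM in iEV and 7.90, 6.11 and 5.77 FPKM in iGLI2 replicates 1, 2 and 3, so that the groups overlapped. The log2 change was -0.16 (standard error 0.13, 95% interval -0.48 to 0.17, limma adjusted p = 0.451), and it passed in 0 of 15 alternatives. Its close relative SPRED2, which was not among the 10, went from 24.3 ± 2.75 FPKM to 34.9 ± 3.26 FPKM (SD, n = 3 per group). The log2 change of SPRED2 was 0.51 (limma adjusted p = 0.0223). The SPRED2 call was lost without iEV replicate 2 (0.0924), iEV replicate 3 (0.0881), iGLI2 replicate 2 (0.0865) and iGLI2 replicate 3 (0.0787), all limma adjusted p-values. The ratio of SPRED2 to SPRED1 was 3.28, 3.11 and 3.43 in iEV and 3.96, 5.88 and 6.52 in iGLI2 replicates 1, 2 and 3.

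The PEA3 group of ETS factors, ETV1, ETV4 and ETV5, share a DNA-binding domain and are held down by CIC until ERK phosphorylates it. ETV4 lies on chromosome 17 of hg19 from 41605211 to 41623800. It had 38.2, 36.4 and 36.8 FPKM in iEV and 44.9, 41.8 and 44.0 FPKM in iGLI2 replicates 1, 2 and 3. The groups did not overlap, and the step between them was small beside those of DUSP5 and SPRY4. This put the log2 change at 0.22 (standard error 0.057, 95% interval 0.084 to 0.36, limma adjusted p = 0.0401). The call held without iGLI2 replicate 1 (adjusted p = 0.0346) and was lost without iEV replicates 1 (0.0582), 2 (0.148) and 3 (0.126) and without iGLI2 replicates 2 (0.0795) and 3 (0.114), all limma adjusted p-values. It was also lost when the digit in the sample code was the block (0.0832). Exons of DHX8, an RNA helicase gene, overlap ETV4 on the opposite strand, and the library kit keeps no strand. DHX8 had 23.1, 24.7 and 23.6 FPKM in iEV and 18.4, 25.0 and 24.9 FPKM in iGLI2 replicates 1, 2 and 3, and its part in the ETV4 values was not tested.

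ETV5, on chromosome 3 of hg19 from 185764106 to 185826901, had 24.4, 17.7 and 19.2 FPKM in iEV and 19.5, 17.3 and 17.7 FPKM in iGLI2 replicates 1, 2 and 3. The groups overlapped, and replicate 1 was the highest of each. DGKG overlaps ETV5 on the same strand and had between 1.20 and 2.19 FPKM. For ETV5 the log2 change was -0.15 (standard error 0.13, 95% interval -0.46 to 0.16, limma adjusted p = 0.443), and ETV5 passed in 0 of 15 alternatives. ETV1, which was not among the 10, rose from 4.17 ± 0.624 FPKM to 12.5 ± 0.594 FPKM (SD, n = 3 per group), a log2 change of 1.39 (limma adjusted p = 6.62e-04) that was called with each library left out. The ratios of ETV1 to ETV5 and of ETV4 to ETV5 within a library did not overlap between the groups and were among the 9 tested as above (exact permutation p = 0.1, adjusted p = 0.129 for both). ETV1 made up 6.73% ± 0.500 of their summed FPKM in iEV and 16.9% ± 0.909 in iGLI2 cells, and ETV5 went from 33.0% to 24.5%. ETV4 remained the most abundant of them, at 60.3% and 58.7%.

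PHLDA1, a pleckstrin homology-like protein whose transcript follows ERK activity, lies on chromosome 12 of hg19 from 76419227 to 76425556. It had 111, 83.5 and 81.5 FPKM in iEV and 149, 111 and 111 FPKM in iGLI2 replicates 1, 2 and 3. Replicate 1 stood above the other replicates by nearly the same factor in both groups, 1.35 in iEV and 1.34 in iGLI2 cells, and iEV replicate 1 reached the level of iGLI2 replicates 2 and 3. The mean was 92.1 ± 16.7 FPKM for iEV and 124 ± 21.9 FPKM for iGLI2 (SD, n = 3 per group). The log2 change was 0.42 (standard error 0.17, 95% interval 0.0042 to 0.84), and the limma adjusted p was 0.137, which did not pass. Its adjusted p was between 0.0691 and 0.340 when single libraries were left out. The antisense gene PHLDA1-AS1 lies opposite and was not matched to the table by name.

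**Figure D3:**
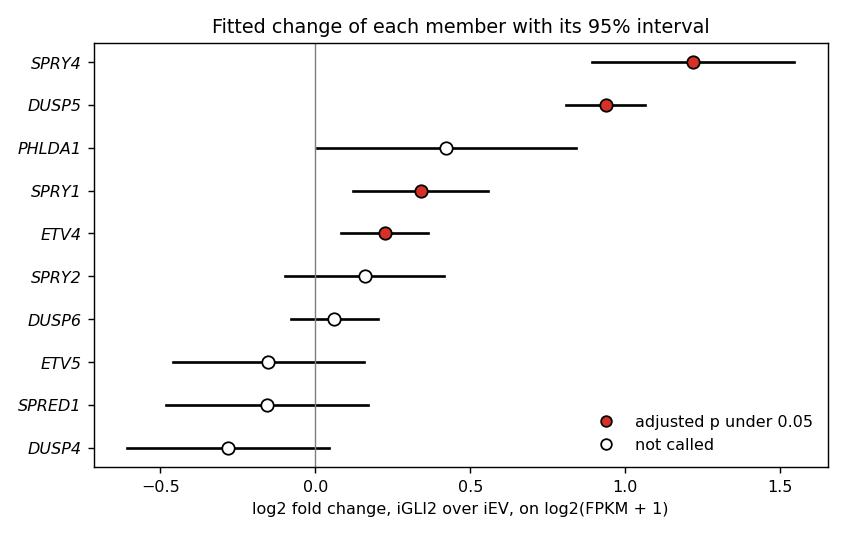
Fitted log2 change of each member, iGLI2 over iEV cells, on the log2(FPKM + 1) scale (horizontal axis), with 95% intervals from limma as lines and filled points for an adjusted p under 0.05. SPRY4 at 1.22 and DUSP5 at 0.94 stand apart from the other 8 genes, which lie between -0.28 and 0.42.

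By level, the iEV order was DUSP6, PHLDA1, DUSP4, DUSP5, SPRY2, ETV4, SPRY1, ETV5, SPRY4 and SPRED1. SPRY1 and ETV5 overlapped, as did ETV5 and SPRY4, and no other neighbours did. In iGLI2 cells the order was DUSP6, PHLDA1, DUSP5, DUSP4, SPRY2, ETV4, SPRY4, SPRY1, ETV5 and SPRED1, with overlap between DUSP6 and PHLDA1, between SPRY2 and ETV4 and between ETV4 and SPRY4. SPRY4 thus moved from place 9 to place 7 and DUSP5 from place 4 to place 3. DUSP6 lay above 94.8% of all genes tested by mean level, PHLDA1 above 93.6%, DUSP5 above 90.3%, and SPRED1 above 36.1%. The 10 members summed to between 474 and 533 FPKM in the iEV and between 578 and 646 FPKM in the iGLI2 libraries.

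**Figure D4:**
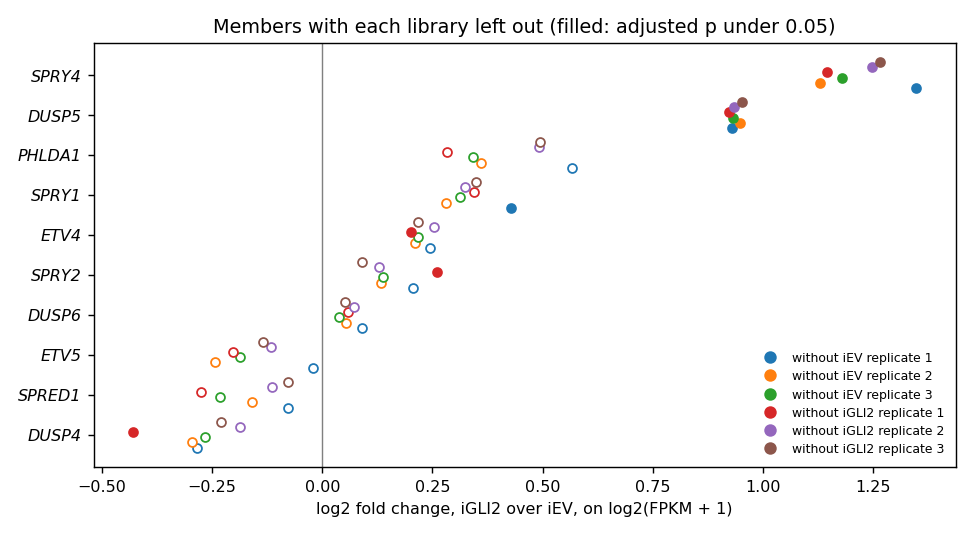
Log2 change of each member (horizontal axis, log2(FPKM + 1) scale) with each of the 6 libraries left out in turn, a colour for each library left out, and filled points where the adjusted p was under 0.05. DUSP5 and SPRY4 are filled in all 6 fits, SPRY1 is filled only without iEV replicate 1, and DUSP4, SPRY2 and ETV4 are filled only without iGLI2 replicate 1.

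The rest of the pathway was read from lists of 69 other genes, of which 64 were tested. With GLI2, 15 of them were called higher and 6 lower, beside backgrounds of 10.1% and 11.8%, with a median log2 change of 0.042. The count of 21 fell to 11 without iEV replicate 2, 11 without iEV replicate 3, 10 without iGLI2 replicate 2 and 13 without iGLI2 replicate 3. Of the 21, 10 were called with every library left out in turn. The other 11, which lost their call in at least 1 of those 6 fits, were HRAS, SPRED2, DUSP7, RASAL2, SPSB1, DUSP10, DUSP16, EPHA4, HBEGF, CDC42EP3 and KLF10, with a highest adjusted p in limma between 0.0599 for SPSB1 and 0.129 for KLF10.

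In the core cascade above these genes, 1 of 19 genes tested (21 listed) was higher and 1 lower. The shares over all genes tested were 10.1% and 11.8%. RPS6KA1, which encodes the ERK-activated kinase RSK1, rose from 11.1 to 25.0 FPKM, a log2 change of 1.09 (limma adjusted p = 0.00354). HRAS, a RAS family gene, fell from 27.9 to 19.9 FPKM, a log2 change of -0.47 (limma adjusted p = 0.0162). BRAF, MAP2K1, MAP2K2 and MAPK3, which encode kinases of the cascade, had log2 changes between -0.19 and 0.02, and none passed.

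Of 14 other negative regulators tested among 16 listed, 5 were higher and 2 lower, beside 10.1% and 11.8% of all genes tested. SPRED3, another SPRED family gene, rose from 0.823 to 2.15 FPKM (log2 change 0.79, limma adjusted p = 0.00182). Its iEV mean was under 1 FPKM, so it reached the test only through its iGLI2 values. It is counted among the 5 here and the 15 pathway genes called higher, and its call carries that limit. RASA1, a GTPase-activating protein that switches RAS off, rose from 26.9 to 44.5 FPKM (0.71, limma adjusted p = 0.00590). SPSB1, RASAL2 and SPRED2 were also higher, with log2 changes between 0.48 and 0.54. ERRFI1, a feedback inhibitor of the EGF receptor, fell from 92.3 ± 9.42 FPKM to 37.5 ± 11.6 FPKM (SD, n = 3 per group), a log2 change of -1.31 (limma adjusted p = 0.00923). DUSP7, the third cytoplasmic ERK phosphatase beside DUSP6 and DUSP9, fell from 4.48 to 2.87 FPKM (-0.50, limma adjusted p = 0.0284), and was named after its values were seen.

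Phosphatases that act mainly on the stress kinases JNK and p38 were low in level. Of 4 tested among 5 listed, 3 were higher and 0 lower, beside 10.1% and 11.8% of all genes tested. DUSP1 rose from 4.43 to 8.51 FPKM (log2 change 0.81, limma adjusted p = 0.00829), DUSP10 from 3.33 to 5.52 FPKM (0.58, limma adjusted p = 0.0278) and DUSP16 from 1.79 to 2.80 FPKM (0.45, limma adjusted p = 0.0304). DUSP8 had a log2 change of -0.41 (limma adjusted p = 0.0544) and did not pass. Its iGLI2 mean was 0.781 FPKM, under 1 FPKM, so it reached the test only through its iEV values.

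All 18 other transcripts listed as rising with ERK activity were tested, and 5 were higher and 3 lower. Over all genes tested the shares were 10.1% and 11.8%. LIF, a cytokine of the interleukin-6 family, rose from 9.38 ± 0.473 FPKM to 44.6 ± 3.81 FPKM (SD, n = 3 per group), a log2 change of 2.13 (limma adjusted p = 1.32e-04). ETV1, EPHA4, PLAUR and KLF10 were the other genes called higher. The EGF receptor ligand EREG fell from 53.4 ± 2.77 FPKM to 25.6 ± 2.44 FPKM (SD, n = 3 per group), a log2 change of -1.04 (limma adjusted p = 9.68e-04). CDC42EP3 and HBEGF, the latter another ligand of that receptor, were the other genes called lower, with log2 changes of -0.40 and -0.38.

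Among 9 genes for other ETS factors and for the CIC repressor complex, 1 was higher and 0 lower. Over all genes tested the shares were 10.1% and 11.8%. ETS2 rose from 8.68 ± 0.338 FPKM to 34.7 ± 5.76 FPKM (SD, n = 3 per group), a log2 change of 1.87 (limma adjusted p = 5.65e-04) that was called with every library left out. CIC, which represses ETV1, ETV4 and ETV5, had 7.35 ± 0.878 FPKM and 7.45 ± 0.448 FPKM (SD, n = 3 per group, limma adjusted p = 0.896).

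**Figure D5:**
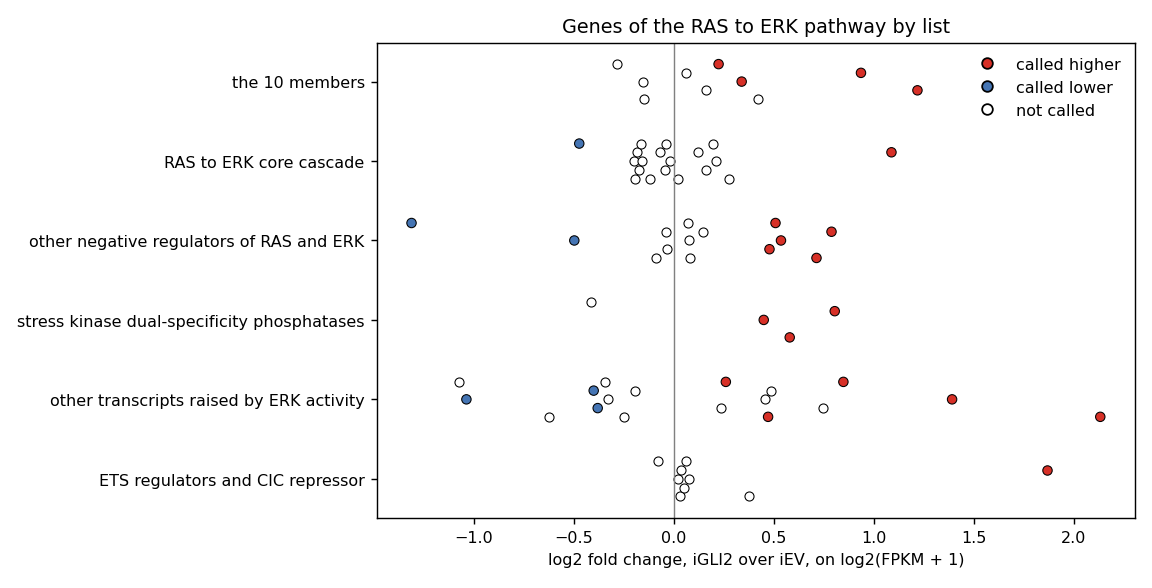
Log2 change, iGLI2 over iEV cells, on the log2(FPKM + 1) scale (horizontal axis) of each gene tested in the 10 members and the 5 other lists, with red for genes called higher, blue for genes called lower and open points for genes not called. Core cascade genes other than RPS6KA1 and HRAS lie between -0.20 and 0.28, and the negative regulators and the ERK-raised transcripts hold red and blue points on either side of 0.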

How the data were processed

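RNA was sequenced from 6 libraries, 3 iEV and 3 iGLI2, made with a TruSeq RNA kit that does not mark strand. The authors used Trimmomatic for trimming, TopHat2 for alignment to hg19 and Cuffdiff, for which the submitters' processing notes give version 2.1.1. The deposited table names no unit, and its values were read as FPKM from their form. The gene annotation was not given in the sources used here. Of 27024 table entries, 1252 outside the primary chromosomes and 330 with a repeated name and lower mean were left out, and 0 columns of values lacked a sample. Locus starts were raised by 1 to count from 1.

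The condition was the single term of a limma 3.58.1 fit (R 4.3.3) to log2(FPKM + 1), moderated along the intensity trend. P-values were two-sided and adjusted by Benjamini-Hochberg over the 12493 genes whose mean reached 1 FPKM, and the threshold was 0.05. The added 1 understates changes of low genes. Exact permutation of 3 against 3 libraries reaches 0.1 at the lowest (two-sided), and was used for ratios within a library, not for single genes. The fit was tested on simulated data. The alternatives were a pseudocount of 0.1, no filter, a mean of at least 5 FPKM, small RNA genes left out with rescaling, upper quartile scaling, blocking by replicate number or by the digit in the sample code, limma without the trend, and each library left out. A combination of block and rescaling, and ratios within a library, were added after the data were seen. The named genes are all 10 members, GLI2, kinases of the cascade, and in each other list up to 6 genes past the threshold with the smallest p, and all genes of counts up to 5. Members and lists were chosen with earlier results of these data known. Some genes of the other lists are not reported here by name. Tables and plots were made with Python 3.11.15, pandas 2.3.3 and matplotlib 3.10.9.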

Additional observations from a re-analysis of the deposited data

How the results depend on the processing

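GLI2 was called in every setting, as were DUSP5 and SPRY4, while DUSP6, ETV5 and SPRED1 were called in none. Over the 10 members and 15 alternatives, 133 of 150 values kept their direction and side of the threshold, 13 lost a call, 4 gained one and 0 changed direction. The count of members called higher was 2 when the digit in the sample code was the block, which took out SPRY1 (limma adjusted p = 0.0754) and ETV4 (0.0832), and SPRY1 was also lost with no filter (0.0523). With each library left out, genes called ranged from 1223 without iEV replicate 2 to 3753 without iGLI2 replicate 1, members called higher from 2 to 4, members called lower from 0 to 1, and other pathway genes called from 10 without iGLI2 replicate 2 to 25 without iGLI2 replicate 1. Fits without a library have fewer samples, and the cause of the rise without iGLI2 replicate 1 was not tested.

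The replicate numbers were not taken to pair the libraries, since the correlations of same-numbered libraries' deviations from their group means were 0.204, 0.0919 and 0.0276 over 12493 genes, and not every library correlated best with its own number. With the replicate block, 3928 genes in place of 2742 were called, and 5 members in place of 4 were higher, the added one being PHLDA1 (limma adjusted p = 0.00869). With the block and small RNA genes left out together, 4889 genes and 33 other pathway genes in place of 21 were called. FPKM without read counts sets no limit of detection, and with 3 libraries a group an interval such as that of DUSP4 spans from a decrease to no change.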
